A study of Homo sapiens with 12 samples.

Results

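The genes described here are 9 transcription factors that mark regions of the forebrain and diencephalon: *LHX2*, *SIX3*, *SIX6*, *RAX*, *NKX2-1*, *BARHL1*, *BARHL2*, *FEZF1* and *FEZF2*. They were chosen by name, all 9 were found among the 25718 genes in the files, and 7 of them had a mean above 10 counts and were tested, as were 11451 genes in all. *SIX6* and *FEZF1* fell below that mean. Levels were measured by poly-A mRNA sequencing in 12 samples of the human embryonic stem cell line H9. All cells were patterned towards ventral midbrain with CT0.8 (a label of the protocol) and Shh at 200 ng/ml. The paper describes its rostro-caudal patterning as done by chemical activation of WNT signalling. All cells carried a lentiviral vector with a Tet-regulated miR-10a or miR-10b and GFP, transduced at a multiplicity of infection of 50. For each vector there were 3 samples given doxycycline from day 11, which switches the vector on, and 3 control samples given none, and every sample was harvested on day 14. The control was the same vector without doxycycline, so an effect of doxycycline itself cannot be told apart from that of miR-10. Nothing in the labels says that samples of a group were separate cultures, so p-values measure the spread between these samples, which may be technical.

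The anterior neural plate is divided along its length by transcription factors that each mark a stretch of it. *SIX3* and *SIX6* are homeobox genes of the most anterior plate, eye and hypothalamus, and *RAX* is a homeobox gene needed for the eye field and hypothalamus. *LHX2* is a LIM-homeobox gene of the telencephalon and eye. *NKX2-1*, induced by Sonic hedgehog, marks ventral forebrain and hypothalamus. *FEZF1* and *FEZF2* encode zinc-finger repressors of the forebrain, and *BARHL1* and *BARHL2* are Bar-class homeobox genes of the diencephalon, also expressed in other parts of the nervous system such as the rhombic lip. miR-10a and miR-10b lie in the HOX clusters and are expressed in caudal parts of the nervous system. The comparison asks how these rostral genes stood in midbrain-patterned cells when a miR-10 was induced.

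The mature miRNA is shown because its seed, bases 2 to 8 in capitals, is the part by which a miRNA pairs with its targets. It is taken from RefSeq (GRCh38.p14), where it lies at chr17:48579904-48579926 on the minus strand.
hsa-miR-10a-5p: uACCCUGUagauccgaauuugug
The other vector carried miR-10b, whose mature form is known to have the same seed. Pairing sites for this seed were searched as the 8mer ACAGGGTA, the 7mers ACAGGGT and CAGGGTA, and the 6mer CAGGGT, on the sense strand of the longest 3′UTR of each gene (GENCODE 44 lifted to GRCh37, the build of the files). Of the 9 genes, only *RAX* held any match. Its 3′UTR of 2441 bases had a 7mer at chr18:56935673-56935679 and a 6mer at chr18:56935634-56935639, both on the minus strand, shown here with their surroundings and the match in capitals.
RAX 7mer: gcgttgacggACAGGGTgggtcagggaa
RAX 6mer: gagaagaagctCAGGGTttccttgtgaa
An annotated 3′UTR was found for 9260 tested genes, of which 16.3% held the 8mer or the first of these 7mers, and 40.7% held any of the matches. No match was found in the 730 bases of the *BARHL1* 3′UTR or the 773 bases of the *BARHL2* 3′UTR, which says only that these letters are not there.

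The precursors showed which cells had been induced. *MIR10A* had 711 to 731 CPM (counts per 1000000 counts of the sample) in miR-10a cells with doxycycline and 0.641 to 1.37 CPM in their controls. *MIR10B* had 2541 to 2662 CPM in miR-10b cells with doxycycline and 2.89 to 4.45 CPM in their controls. Total counts were 10545487 to 14165426 per sample, and the controls of each vector all had larger totals than its doxycycline samples. Replicate 2 of miR-10b with doxycycline stood apart from its group: the chi-square of counts between replicates per degree of freedom was 3.17 and 4.11 in its pairs and 1.22 to 1.93 in all others. Among marker lists, the summed level of the neuron list (8 genes) was 703 to 734 CPM in miR-10b cells with doxycycline and 656 to 681 CPM in their controls, and that of the neural progenitor list (7 genes) was 6630 to 6986 CPM against 7215 to 7307 CPM. In miR-10a cells the neuron list had 659 to 689 CPM with doxycycline and 646 to 657 CPM without, and the progenitor list 6368 to 6568 CPM against 6669 to 6712 CPM. Most of each sum was a single gene, so the sums do not describe the whole lists. In miR-10b cells *INA* had a mean of 591 CPM with doxycycline and 554 CPM without, and *NES* 4696 and 5160 CPM. In miR-10a cells the means were 551 and 537 CPM for *INA*, and 4454 and 4595 CPM for *NES*. The midbrain and floor plate list (18 genes) had 1165 to 1467 CPM in all samples, but *SHH* and *FOXA1*, floor plate genes that are not particular to the midbrain, held 80.0% to 85.1% of that sum. *EN1*, a midbrain and hindbrain gene, had 87.2 to 111 CPM, and *LMX1A*, a marker of midbrain floor plate, 2.49 to 8.08 CPM. 3 genes of the list, *LMX1B*, *PAX2* and *PAX8*, had no count in any sample, which is not informative, because each has several transcripts and shared reads appear not to have been counted (described below for *FEZF1*). For the same reason the level of *LMX1A* (2 transcripts) may be understated. The share held by *SHH* and *FOXA1* (1 transcript each) may likewise be overstated. The part of these cell markers in the results below was not tested. In bulk samples, fewer cells of a type and less RNA per cell cannot be told apart.

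The 7 tested genes spanned a wide range of levels. Per kilobase of transcript, *BARHL2* was highest in every group, with a median of 19.4 CPM per kb in miR-10a cells with doxycycline, 21.4 in their controls, 12.3 in miR-10b cells with doxycycline and 15.5 in their controls. *SIX3* came next in all 4 groups, with medians of 8.22 to 9.01 CPM per kb and no overlap with *BARHL2* or with the gene below it. *BARHL1* and *FEZF2* followed, and their order was not the same in all groups. In miR-10a controls *BARHL1* had 3.57 to 4.48 CPM per kb and *FEZF2* had 2.20 to 3.11. In miR-10a cells with doxycycline the order was the other way, with 2.86 to 3.61 for *FEZF2* and 2.04 to 2.88 for *BARHL1*, and these ranges overlapped. In miR-10b cells *FEZF2* lay above *BARHL1* without overlap, at 4.23 to 5.06 against 1.59 to 1.84 CPM per kb with doxycycline and at 3.66 to 4.51 against 2.60 to 2.92 without. *NKX2-1*, *LHX2* and *RAX* were all below 1 CPM per kb. *NKX2-1* and *LHX2* overlapped in miR-10a controls, and *RAX* and *LHX2* overlapped in miR-10b cells with doxycycline. Set against all tested genes by their mean over the 12 samples, *BARHL2* lay above 65.9% of them, *SIX3* above 53.9%, *FEZF2* above 40.1% and *BARHL1* above 35.9%. *NKX2-1* lay above 14.3%, *LHX2* above 5.84% and *RAX* above 4.13%. Genes with several transcripts may be understated (described below for *FEZF1*), so ranks of genes with 1 transcript may be too high.

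**Figure D1:**
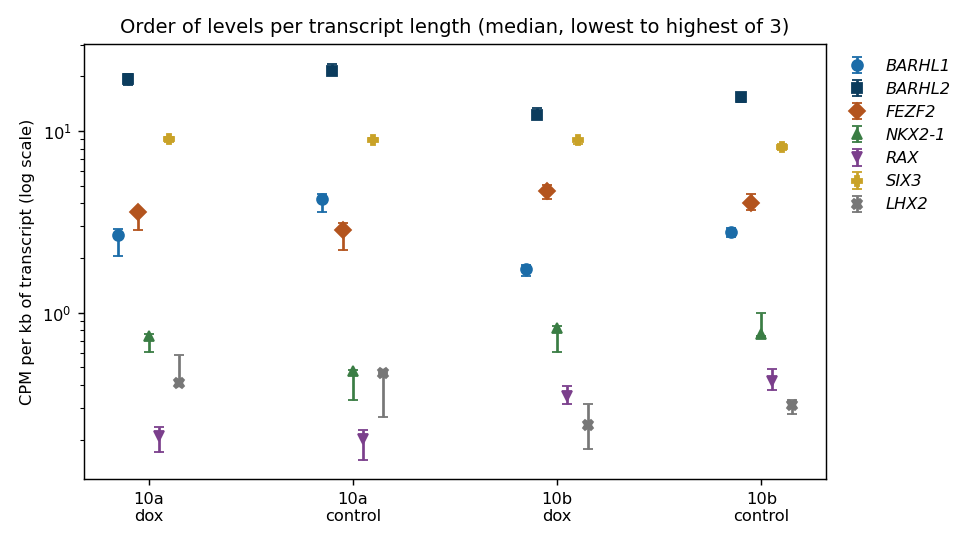
Level of the 7 tested genes in each group, as CPM per kb of transcript on a log axis. Symbols are the median of 3 samples and bars run from the lowest to the highest; 10a and 10b name the vector and dox means doxycycline. BARHL2 is highest in all 4 groups, and BARHL1 lies above FEZF2 only in miR-10a controls.

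*SIX6* and *FEZF1* could not be followed. *SIX6* had a single read in the 12 samples together, and a count of 0 allows up to 3 counts, or 0.212 to 0.284 CPM depending on the sample. *FEZF1* had no count on either of its 2 transcripts. The deposited counts appear to leave out reads that several transcripts of a gene share (genes with 1 transcript held 92.84% of all counts), so its 0 is not informative. The level of *NKX2-1*, which also has 2 transcripts, may be understated for the same reason. The other 7 genes each had 1 transcript.

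*BARHL1* fell in both miR-10a and miR-10b cells, and *BARHL2* fell in miR-10b cells. In miR-10a cells *BARHL1* had 3.89, 5.13 and 5.50 CPM with doxycycline (4.84 ± 0.841, SD, n = 3) and 8.04, 8.54 and 6.81 CPM in controls (7.80 ± 0.890). All induced samples lay below all controls, and the mean fell by 37.9%. The log2 fold change was −0.69 (SE 0.14), with an adjusted p of 0.00449 (edgeR quasi-likelihood test, Benjamini-Hochberg correction across the tested genes). In miR-10b cells *BARHL1* had 3.03, 3.52 and 3.33 CPM with doxycycline (3.29 ± 0.246) and 5.32, 4.96 and 5.56 CPM in controls (5.28 ± 0.300). Again the groups did not overlap, and the mean fell by 37.7%. The log2 fold change was −0.68 (SE 0.17, edgeR adjusted p = 0.00362), and it was −0.73 (edgeR adjusted p = 0.00561) without the replicate that stood apart. The miR-10a call rests on single samples: edgeR's adjusted p was 0.0997 without doxycycline replicate 1, with a log2 fold change of −0.56, and 0.0552 without control replicate 2, with −0.62.

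*BARHL2*, its paralogue, had the smaller fitted change. In miR-10b cells it had 18.1, 20.0 and 18.5 CPM with doxycycline (18.9 ± 1.01) and 24.4, 21.6 and 23.2 CPM in controls (23.1 ± 1.38). These groups did not overlap, and the log2 fold change was −0.29 (SE 0.08, edgeR adjusted p = 0.0119). Without the replicate that stood apart it was −0.33 (edgeR adjusted p = 0.00745). The call was lost without doxycycline replicate 1 (−0.26, edgeR adjusted p = 0.0558) and without control replicate 1 (−0.25, edgeR adjusted p = 0.0631). In miR-10a cells *BARHL2* had 29.0, 30.8 and 26.7 CPM with doxycycline and 30.8, 32.1 and 35.2 CPM in controls. These ranges overlapped, and the log2 fold change of −0.18 (SE 0.07) did not pass the test (edgeR adjusted p = 0.316).

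Of the 7 tested genes, 1 passed the test with miR-10a induced and 2 with miR-10b induced, all lower. The share of all tested genes that passed was 1.21% for miR-10a and 15.3% for miR-10b. With the effects of both vectors averaged, *BARHL1* (log2 −0.69, SE 0.11, edgeR adjusted p = 1.98e-05) and *BARHL2* (log2 −0.23, SE 0.05, edgeR adjusted p = 0.00267) passed, where 13.9% of all tested genes did. The effects of the vectors were also compared with each other, which 1.96% of all tested genes passed. None of the 7 did by edgeR's adjusted p or by DESeq2, and 1, *NKX2-1*, had an unadjusted p under 0.05. For *BARHL1* the difference of the log2 effects, miR-10b minus miR-10a, was 0.01 (95% confidence interval −0.47 to 0.49), and for *BARHL2* it was −0.12 (−0.34 to 0.11).

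**Figure D2:**
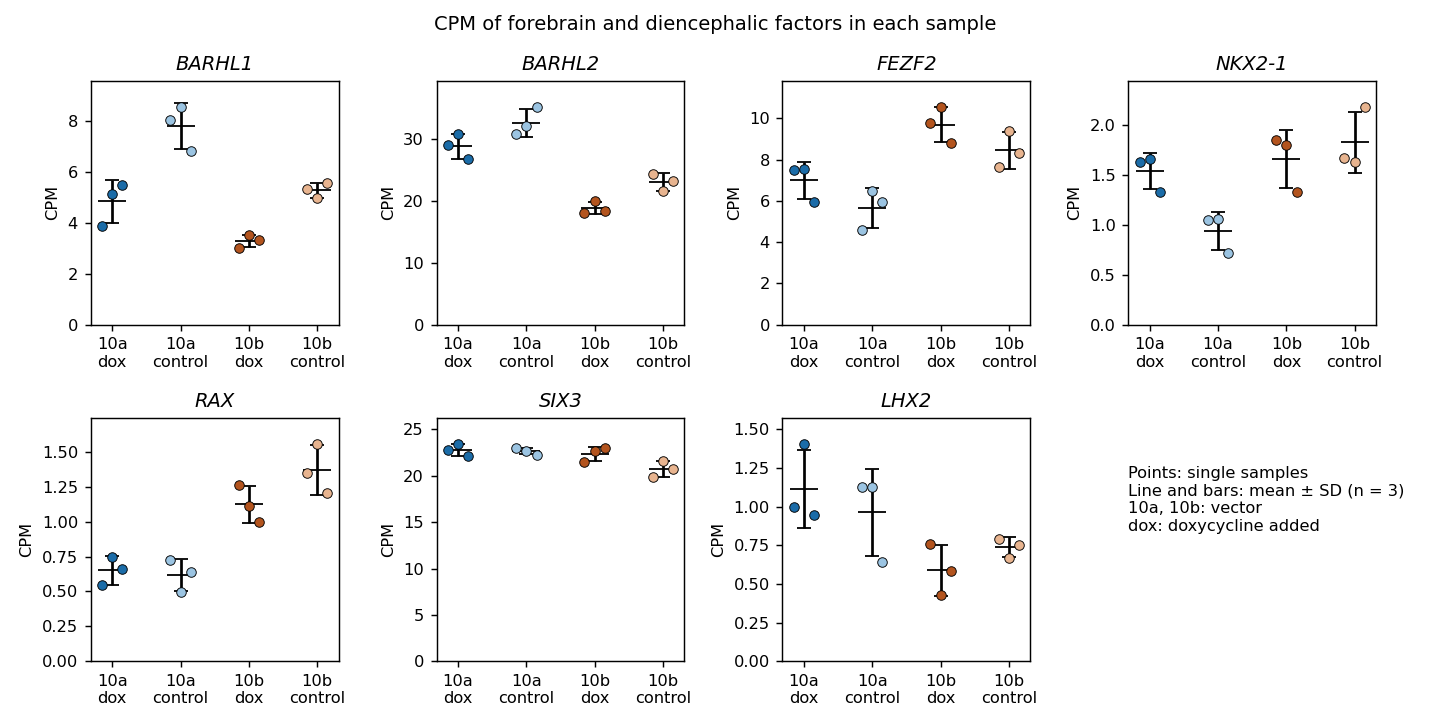
CPM of the 7 tested genes in each of the 12 samples, on linear axes from 0, by vector (10a, 10b) and doxycycline (dox) or control. Points are samples, and lines with bars are the mean ± SD of 3. BARHL1 lies lower with doxycycline than without in both pairs of groups, while SIX3 stays between 19.9 and 23.4 CPM.

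The ratio of the Bar genes was taken within each sample, which cancels the total count. *BARHL1* stood at 13.4%, 16.7% and 20.6% of the *BARHL2* CPM in miR-10a cells with doxycycline and at 26.1%, 26.7% and 19.4% in their controls. These overlapped, because control replicate 3 lay below doxycycline replicate 3 (exact two-sided permutation test, p = 0.2, n = 3 against 3). In miR-10b cells the ratio was 16.7%, 17.6% and 18.0% with doxycycline and 21.8%, 22.9% and 23.9% without, with no overlap. The exact two-sided permutation test gave p = 0.1, the smallest that 3 against 3 samples allow. Between the controls of the vectors the ratio was much alike, with means of 24.0% ± 4.06 and 22.9% ± 1.06 (SD, n = 3, exact permutation p = 0.7).

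**Figure D3:**
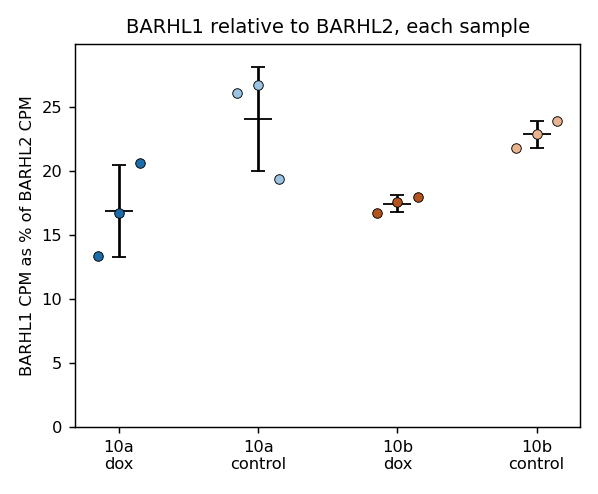
BARHL1 CPM as a percentage of BARHL2 CPM in each sample, by vector (10a, 10b) and doxycycline (dox) or control. Points are samples, and lines with bars are the mean ± SD of 3. The miR-10b groups do not overlap, and in miR-10a cells a control sample at 19.4% lies within the range of the doxycycline samples.

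The 250 bases before the *BARHL1* and *BARHL2* start sites are shown because these genes moved the same way. They come from RefSeq (GRCh38.p14), which gave a window for 7 of the 9 genes; *SIX3* and *FEZF2* had none. *BARHL1* lies at chr9:135457993-135465639 and *BARHL2* at chr1:91177096-91182859 (minus strand) on GRCh37, and the windows at chr9:132582356-132582605 and chr1:90717303-90717552 (minus strand) on GRCh38.p14. Letters known from promoters or from factors of this tissue were searched on either strand, and capitals mark the matches.
BARHL1 promoter: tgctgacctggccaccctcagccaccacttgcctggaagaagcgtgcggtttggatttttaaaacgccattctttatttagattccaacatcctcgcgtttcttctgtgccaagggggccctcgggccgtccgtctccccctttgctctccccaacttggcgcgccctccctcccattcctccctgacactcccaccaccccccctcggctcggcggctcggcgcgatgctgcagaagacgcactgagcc
BARHL2 promoter: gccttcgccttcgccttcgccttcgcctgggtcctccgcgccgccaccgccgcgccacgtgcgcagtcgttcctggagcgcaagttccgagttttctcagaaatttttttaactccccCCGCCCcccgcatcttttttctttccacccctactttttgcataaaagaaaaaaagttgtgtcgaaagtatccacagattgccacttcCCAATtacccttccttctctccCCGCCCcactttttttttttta
None of the letters searched was found in the *BARHL1* window. The *BARHL2* window held the CCAAT box, with the letters CCAAT, at −44 from the start site, and 32.0% of all 35116 windows held it. It held the GC box, searched as GGGCGG, at −132 and −22, as did 42.6% of all windows, and none of these matches overlapped. The homeodomain core was searched as TAATTA, found in 4.35% of windows but in neither of these. The TCF/LEF core was searched as CTTTGAT, found in 2.26% of windows. The OTX-type site was searched as TAATCC, found in 5.62%. The GLI core was searched as ACCACCCA, found in 1.09%. The TATA box was searched as TATAAA, found in 10.7%. The windows were 61.6% and 52.4% G and C, against a median of 58.0% over all windows, and held 17 and 19 CpG, against a median of 11. A match is a description of letters, not of binding.

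The zinc-finger gene *FEZF2* lay higher with doxycycline on average, but did not pass the test with either vector. It had 7.52, 7.53 and 5.97 CPM in miR-10a cells with doxycycline and 4.58, 6.50 and 5.93 CPM in their controls. In miR-10b cells it had 9.76, 10.6 and 8.81 CPM with doxycycline and 7.63, 9.41 and 8.34 CPM in controls. The groups overlapped with each vector. The log2 fold change was 0.30 (SE 0.15, edgeR adjusted p = 0.436) with miR-10a, 0.20 (SE 0.12, edgeR adjusted p = 0.325) with miR-10b and 0.25 (SE 0.10, edgeR adjusted p = 0.0806) on average.

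*NKX2-1* had 1.63, 1.66 and 1.33 CPM in miR-10a cells with doxycycline and 1.04, 1.06 and 0.721 CPM in their controls, from 9 to 20 counts a sample. These groups did not overlap, but the log2 fold change of 0.70 (95% confidence interval 0.11 to 1.29) did not pass (edgeR adjusted p = 0.323). In miR-10b cells it had 1.85, 1.80 and 1.33 CPM against 1.67, 1.63 and 2.18 CPM, which overlapped (log2 −0.14, interval −0.63 to 0.35). The antisense gene *NKX2-1-AS1*, looked at after its values were seen, rose in miR-10a cells from 4.57 ± 0.333 to 6.65 ± 0.219 CPM (log2 0.55, SE 0.14, edgeR adjusted p = 0.0369, n = 3). With the miR-10b vector it had a log2 fold change of 0.10 (SE 0.11, edgeR adjusted p = 0.636), and the difference between the vectors did not pass (−0.45, edgeR adjusted p = 0.237). The antisense genes *FEZF1-AS1* and *SIX3-AS1* were looked at as well. *FEZF1-AS1* did not pass with miR-10a (log2 0.20, edgeR adjusted p = 0.728) or miR-10b (−0.14, edgeR adjusted p = 0.601), and *SIX3-AS1* was too low to be tested. Whether the counting used strand is not stated, so reads of *NKX2-1-AS1* and of *NKX2-1* may not be told apart where they overlap.

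Of the 7 genes, *SIX3* had the fitted change nearest to 0 with each vector. It had 22.7, 23.4 and 22.1 CPM in miR-10a cells with doxycycline and 23.0, 22.7 and 22.3 CPM in their controls, and the log2 fold change was 0.01 (95% confidence interval −0.14 to 0.16). In miR-10b cells it had 21.5, 22.7 and 23.0 CPM against 19.9, 21.6 and 20.7 CPM, groups that overlapped (0.11, interval −0.04 to 0.26). A change of the size seen for *BARHL1* lay outside both intervals.

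*RAX* and *LHX2* were too low for a firm statement, with 6 to 21 and 5 to 17 counts a sample. *RAX*, the only gene with a seed match, had 0.543 to 0.745 CPM in miR-10a cells with doxycycline and 0.494 to 0.723 CPM in controls (log2 0.09, interval −0.68 to 0.86). In miR-10b cells it had 0.998 to 1.26 CPM against 1.20 to 1.56 CPM (log2 −0.28, interval −0.84 to 0.27). *LHX2* had a log2 fold change of 0.21 (interval −0.42 to 0.85) with miR-10a and of −0.31 (interval −1.09 to 0.47) with miR-10b, and its groups overlapped both times. The last interval includes both no change and a 2-fold fall.

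Counted by overlap, 2 of the 7 genes had separate groups in miR-10a cells (*NKX2-1* higher, *BARHL1* lower) and 2 in miR-10b cells (both Bar genes, lower). Over all tested genes the groups were separate for 18.2% with the miR-10a vector and 28.7% with the miR-10b vector.

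**Figure D4:**
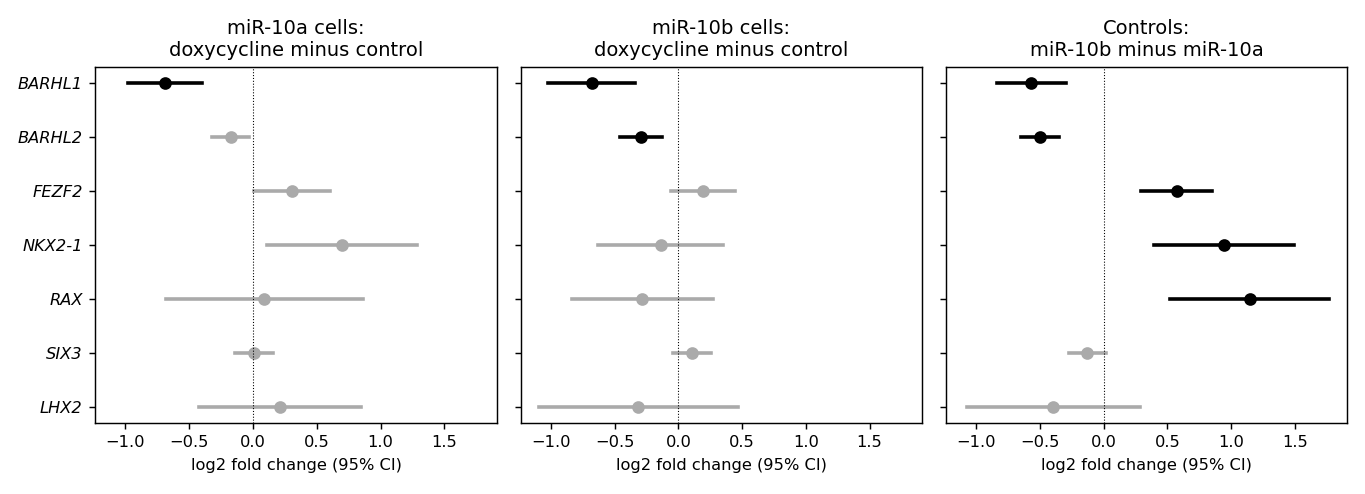
Log2 fold change of each tested gene with its 95% confidence interval, by edgeR: doxycycline minus control in miR-10a cells, the same in miR-10b cells, and miR-10b minus miR-10a among controls. Black marks an adjusted p under 0.05 and grey the rest. BARHL1 is below 0 in all 3 panels, and FEZF2, NKX2-1 and RAX pass only among controls, where they are above 0.

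The controls of the vectors were compared with each other as well. Vector and culture cannot be told apart in this comparison, and its controls also enter the comparisons above. The controls also differed in the precursors, at low levels. *MIR10A* had a mean of 0.9985 CPM in miR-10a controls and 0.0515 CPM in miR-10b controls (edgeR adjusted p = 5.4e-06). *MIR10B* had 0.814 CPM in miR-10a controls and 3.55 CPM in miR-10b controls (edgeR adjusted p = 4.9e-08). The part of this in the differences below was not tested. *RAX*, *NKX2-1* and *FEZF2* were higher and *BARHL1* and *BARHL2* lower in miR-10b controls than in miR-10a controls, 5 of the 7 tested genes, where 14.1% of all tested genes passed. The groups were separate for 6 of the 7, *SIX3* included, against 30.1% of all tested genes.

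*BARHL2* had 24.4, 21.6 and 23.2 CPM in miR-10b controls and 30.8, 32.1 and 35.2 CPM in miR-10a controls (log2 −0.50, SE 0.07, edgeR adjusted p = 2.18e-06). *BARHL1* had a log2 difference of −0.57 (SE 0.13, edgeR adjusted p = 0.00254). Both Bar genes were thus lowest in miR-10b cells with doxycycline and highest in miR-10a controls. *FEZF2* ran the other way, at 8.46 ± 0.897 CPM in miR-10b controls and 5.67 ± 0.983 CPM in miR-10a controls (log2 0.57, SE 0.14, edgeR adjusted p = 0.0026, n = 3).

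*RAX* had 1.35, 1.56 and 1.20 CPM in miR-10b controls and 0.723, 0.494 and 0.641 CPM in miR-10a controls (log2 1.15, SE 0.31, edgeR adjusted p = 0.00796). *NKX2-1* had a log2 difference of 0.94 (SE 0.27, edgeR adjusted p = 0.0134). Both rest on few counts. With DESeq2 their adjusted p were 0.0915 and 0.0892, without its filter on low counts. The *RAX* call was lost without replicate 2 of either control (edgeR adjusted p = 0.0673 for miR-10a, 0.0524 for miR-10b), and the *NKX2-1* call without replicate 3 of either (0.0809 and 0.0933). *NKX2-1-AS1* was also higher in miR-10b controls (log2 0.83, SE 0.13, edgeR adjusted p = 7.22e-06), while *FEZF1-AS1* did not pass (log2 0.35, SE 0.16, edgeR adjusted p = 0.148). *SIX3* and *LHX2* did not pass, with log2 differences of −0.13 (SE 0.07, edgeR adjusted p = 0.292) and −0.40 (SE 0.33, edgeR adjusted p = 0.538).

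Other genes of the forebrain and diencephalon were followed as a list of 29, of which 17 were tested. In miR-10a cells 1 of the 17 fell, *WNT8B*, a Wnt ligand of the forebrain, and none rose. Without doxycycline replicate 3 that call was lost (log2 −0.15, edgeR adjusted p = 0.102). In miR-10b cells *WNT8B* fell, and *LHX5* and *SIM1*, homeobox and bHLH-PAS factors with roles in diencephalon and hypothalamus, rose. These 3 of 17 stand beside 15.3% of all tested genes, so the share is close to the background. *WNT8B* had 188, 178 and 167 CPM with miR-10a induced and 204, 201 and 204 CPM in controls (log2 −0.19, SE 0.04, edgeR adjusted p = 0.00551), and its log2 fold change with miR-10b was −0.17 (SE 0.04, edgeR adjusted p = 0.00351). *SIM1* had 196 to 225 CPM with miR-10b induced and 171 to 175 CPM in controls (log2 0.27, SE 0.04, edgeR adjusted p = 1.45e-05), and *LHX5* rose by 0.20 on the log2 scale (SE 0.05, edgeR adjusted p = 0.00641). The median log2 fold change of the 17 was 0.02 for the miR-10a vector, where that of all tested genes was 0.01, and 0.11 for the miR-10b vector, where it was 0.02.

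Among controls, 4 of these 17 genes were lower with the miR-10b vector. These were *DLX5*, *EMX2*, *OTX1* and *WNT8B*, with log2 differences of −1.07, −0.90, −1.02 and −0.42, where 14.1% of all tested genes passed in either direction. The calls of *DLX5* and *EMX2*, which had few counts, were lost under DESeq2 (adjusted p = 0.208 and 0.171, without its filter on low counts) and without several single control samples, with edgeR adjusted p up to 0.135 for *DLX5* and 0.205 for *EMX2*. Of the 11 tested midbrain and floor plate genes, 5 were higher with the miR-10b vector, among them *CORIN* and *LMX1A* (log2 1.61 and 1.01), and *SP5* was lower (−1.50). The same 14.1% of all tested genes stands beside these counts and those of the hindbrain list. *CORIN* has 3 transcripts, and *LMX1A*, *EMX2* and *OTX1* have 2 each, so reads shared by transcripts may be missing (described above for *FEZF1*). Their changes, here and with doxycycline, may therefore cover only part of each gene. In the hindbrain and caudal list, 3 of 6 tested genes were higher and 2 lower, among them *PHOX2A*, whose call was lost under DESeq2 without its filter (adjusted p = 0.0544) and without 3 of the control samples, each left out alone (edgeR adjusted p up to 0.0907). With doxycycline, the midbrain list held *WNT1*, a ligand of the midbrain-hindbrain boundary, which fell in both miR-10a and miR-10b cells (log2 −0.45 and −0.65), and *CORIN*, which fell in miR-10b cells (−0.77). That was 1 of 11 tested with miR-10a (2 without the replicate that stood apart), beside 1.21% of all tested genes, and 2 of 11 with miR-10b, beside 15.3%, or 4 of 11 with miR-10b under TMM scaling. With the effects averaged, 4 of 11 fell, beside 13.9% of all tested genes: *WNT1*, *CORIN*, *MSX1* (−0.21, edgeR adjusted p = 0.0103) and *SP5* (−0.21, edgeR adjusted p = 0.00382). By edgeR no hindbrain or retinal gene passed with either vector; 1, *VSX1* with miR-10a, had an unadjusted p under 0.05, and DESeq2 called 0. In the neural progenitor list, 3 of 7 genes fell (*SOX3*, *HES5*, *NES*) and *MSI1* rose in miR-10b cells, beside 15.3% of all tested genes. The *HES5* call was lost without miR-10b doxycycline replicate 1 or 3, and without any single miR-10b control (edgeR adjusted p = 0.0546 to 0.0998). The count of 4 dropped to 2 without doxycycline replicate 3, control replicate 2 or control replicate 3, and the *MSI1* call was lost under TMM (edgeR adjusted p = 0.076) and DESeq2 (adjusted p = 0.0964). *NEUROD1* and *INA*, neuronal genes, rose in miR-10b cells, 2 of 5 tested, beside the same 15.3%. *INA* (log2 0.09) lost its call under TMM (edgeR adjusted p = 0.0961), DESeq2 (adjusted p = 0.107) and without 6 of the samples, each left out alone, among them the replicate that stood apart (edgeR adjusted p = 0.0764), which left *NEUROD1* alone. By edgeR neither list had a call in miR-10a cells, where 3 progenitor genes (*HES5*, *SOX1*, *SOX3*) and 2 neuronal genes (*NEUROD1*, *NHLH1*) had an unadjusted p under 0.05 and DESeq2 called 0. The neural crest list and the mesoderm and endoderm list had 1 tested gene each and no call by edgeR or DESeq2 in any of these comparisons, with 1 unadjusted p under 0.05 (*TBX6*, among controls). The residual pluripotent list also had 1, *DPPA4*, which was lower in miR-10b controls (−0.43).

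The genes most like each member over the 12 samples were found by Pearson's r of log2(CPM + 1) among 8166 genes with a mean above 50 counts. These r are descriptions, since all genes share the same libraries and groups. *BARHL1* was most like *PRTG* (r = 0.949) and *ASCC3* (0.944), and *PRTG* had a mean of 7132 CPM in miR-10a controls and 3220 CPM in miR-10b cells with doxycycline. *BARHL2* was most like *LIN28A* (0.977) and *WNT8B* (0.975). *FEZF2* was most like *RTN4RL1* (0.951) and *DDOST* (0.937), and *SIX3* like *TAMM41* (0.877) and *SLC16A14* (0.866). Among the members, *BARHL1* and *BARHL2* had r = 0.80, while *FEZF2* had −0.80 with *BARHL1* and −0.81 with *BARHL2*. *SIX3* had 0.05 with *BARHL1*, 0.31 with *BARHL2* and −0.25 with *FEZF2*.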

How the data were processed

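The authors sequenced poly-A mRNA from 12 samples (50-base single-end reads), mapped it to hg19 and deposited raw counts per RefSeq transcript. The sample labels list STAR, Subread and featureCounts in the processing notes, with no version given. The methods name the RNeasy kit and NuGEN libraries, the labels the miRNeasy kit and Illumina libraries. Strand use is not given in the sources used here. Each file held 51799 rows; 3698 repeated rows of identical counts were dropped, leaving 48101 transcripts. For each gene the transcript with the highest mean count was used.

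Tests on genes with a mean above 10 counts used R 4.3.3 and the package edgeR 4.0.16 (glmQLFit, glmQLFTest, total count as library size, Benjamini-Hochberg adjustment, threshold 0.05), with 4 group means in 1 fit and no block. The code was tested on simulated counts. Single values were compared by exact permutation (scipy 1.17.1). Groups came from the sample labels. Total counts were 10545487 to 14165426 per sample, so 3 counts correspond to 0.212 to 0.284 CPM, a floor that covers counting error only.

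The members and gene lists were chosen with earlier results of these data known. The text names all 9 members, up to 4 genes per list and direction by size of change among those that passed, and the 2 genes most alike to each member with a mean above 50 counts. Same-numbered samples of a vector did not deviate together (r between −0.032 and 0.005 in 6 pairs). Seed matches were counted in protein-coding transcripts; this choice was made after the shares over all coding transcripts (17.4% and 43.9% in place of 16.3% and 40.7%) had been seen. The alternatives were TMM, DESeq2 1.42.0, other count filters, the replicate block, separate fits, summed transcripts, thinned counts and leaving out each sample; DESeq2 without independent filtering was added after seeing the data. Results for some listed genes are not reported here.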

Additional observations from a re-analysis of the deposited data

How the results depend on the processing

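Over 669 recomputed log2 fold changes of the 7 tested genes, 637 kept direction and side of the threshold. None of the 20 that reversed was among the 10 results that passed. Samples left out 1 at a time gave 0 to 1 members called with miR-10a, 1 to 2 with miR-10b and 75 to 268 genes over all with miR-10a (268 without miR-10b doxycycline replicate 2), 140 to 339 genes for the difference of the effects. Only the groups of the contrast gave 275 genes with miR-10a, and no count filter gave 343 genes for the difference, where the main counts were 139 and 224. Among controls, 3 members passed under DESeq2 without independent filtering (*RAX* 1.16 and *NKX2-1* 0.96 lost the call) and 3 with a mean above 50 counts, since *RAX* and *NKX2-1* were then not tested. DESeq2 as run by default left the adjusted p of several members empty, so its member counts are not given for those comparisons.

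The reversals were in results that had not passed. *SIX3* with miR-10a was −0.0024 with DESeq2, with and without its filter, and −0.0299 with thinned counts, and *RAX* with miR-10a was −0.2077 with thinned counts, where the main value was 0.09. The difference of the *BARHL1* effects was −0.0031 with DESeq2 without filtering and −0.0829 with thinned counts. With each sample left out in turn, values crossed 0 for *SIX3* (−0.0143 to 0.0284) and *RAX* (−0.0611 to 0.2110) with miR-10a, *NKX2-1* with miR-10b (−0.2244 to 0.0093), the average of *LHX2* (−0.1584 to 0.0388) and the difference of *BARHL1* (−0.1216 to 0.1033) and *FEZF2* (−0.2248 to 0.0194). The average *FEZF2* effect passed without miR-10a doxycycline replicate 3 (0.30, edgeR adjusted p = 0.0473) or control replicate 2 (0.31, edgeR adjusted p = 0.0429). The cause was not tested.

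With the replicate number as a block, 1, 2, 2, 0 and 5 members passed with miR-10a, with miR-10b, on average, for the difference and among controls, as without it, and over all genes 166, 1826, 1680, 274 and 1689. TMM and DESeq2 moved the split of calls over all genes: 55.2% of the average calls were higher, against 43.8% and 38.4%. Depth limits *RAX*, *LHX2* and *NKX2-1*, with at most 29 counts a sample.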
